A study of Mus musculus with 37 samples.

Results

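The apelin and endothelial growth set holds 10 genes that carry signals to and from the endothelium: the ligand Apln and its receptor Aplnr, the growth factor Vegfa with its receptors Kdr and Flt1, the angiopoietins Angpt1 and Angpt2 with their receptor Tek, the Notch ligand Dll4, and the growth factor Pdgfb. The members were the rows of the deposited expression table that bear these 10 symbols, out of 56748 genes listed. The set was chosen with earlier results of the same data in view, and its members were selected on the low Apln level of Arrest hearts at 0.5 and 1 day against Naïve hearts. Values of those 2 contrasts are therefore given as a description of the members. Their calls are counted beside the share of all genes, and no support is drawn from them. The other contrasts are read as tests, but not all are free of that choice. Those against Naïve reuse the same Naïve libraries. Those of early Arrest hearts against Adr hearts or against Arrest hearts of 7 days reuse the same early Arrest libraries.

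Bulk RNA of left ventricular tissue, with the apex discarded, was sequenced from 37 C57BL/6J mice of both sexes, aged 8 to 10 weeks. Naïve mice (5 libraries) received isoflurane anesthesia only and were not ventilated. Adr mice, which the sample labels call sham, were anesthetized, ventilated and given saline into the left ventricle, then adrenaline at 15 µg/mL after 8 min. Arrest mice were anesthetized and ventilated in the same way, held in KCl-induced asystole for 8 min and resuscitated with adrenaline at the same concentration and chest compressions. Adr and Arrest hearts were taken after 0.5 or 1 day and after 3 or 7 days, with 4 libraries in each of these 8 groups. Isoflurane was common to all 9 groups, and saline took the place of KCl in Adr mice, so neither control arm is free of procedure. Naïve hearts have no time course of their own. The labels name no shared animal, litter or day, so p-values measure the spread between these libraries.

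Apelin is a peptide made in the heart mostly by endothelial cells, and it acts on Aplnr, a G protein-coupled receptor that sustains contractility and vascular growth. Vascular endothelial growth factor A, made in the ventricle largely by cardiomyocytes, signals to endothelium through the receptor kinase Kdr, while Flt1 binds the same ligand tightly and can act as a sink for it. Angpt1 holds vessels quiescent through the receptor kinase Tek, and Angpt2 competes with it when vessels remodel. Dll4 on sprouting and arterial endothelium signals through Notch, and Pdgfb from endothelium draws pericytes to the vessel wall.

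In the file, Apln (ENSMUSG00000037010) spans 47114023 to 47123730 on the minus strand of chromosome X, Aplnr (ENSMUSG00000044338) spans 84966569 to 84970267 on the plus strand of chromosome 2, and Kdr (ENSMUSG00000062960) spans 76093487 to 76139118 on the minus strand of chromosome 5. All 10 members are annotated there as protein coding. The genome build of these coordinates is not given in the sources used here, and they differ from GRCm38. Overlapping transcripts share the loci of Angpt1 (Gm17473), Angpt2 (Mcph1), Dll4 (Gm14207) and Pdgfb (Gm41361 and Mir7213). The strand counted is not stated, so reads of these 4 members cannot be told apart from those of their partners.

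Promoter sequence from RefSeq (GRCm38.p6) was matched for 6 of the 10 members. The 250 bases before the start of Apln, Kdr and Flt1 are shown, because Apln and Kdr were low together in early Arrest hearts while Flt1 was not. Capitals mark the ETS core, GGAA or its complement TTCC, read on both strands and written 5′ to 3′ on the strand of the gene. The windows are, in order, chrX:48034854-48035103 (minus strand), chr5:75978456-75978705 (minus strand) and chr5:147726012-147726261 (minus strand).
Apln: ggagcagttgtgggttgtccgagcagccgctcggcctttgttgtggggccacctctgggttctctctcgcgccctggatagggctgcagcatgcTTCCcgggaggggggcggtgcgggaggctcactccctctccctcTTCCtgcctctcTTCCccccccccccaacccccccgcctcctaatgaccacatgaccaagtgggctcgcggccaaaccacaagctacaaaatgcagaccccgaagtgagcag
Kdr: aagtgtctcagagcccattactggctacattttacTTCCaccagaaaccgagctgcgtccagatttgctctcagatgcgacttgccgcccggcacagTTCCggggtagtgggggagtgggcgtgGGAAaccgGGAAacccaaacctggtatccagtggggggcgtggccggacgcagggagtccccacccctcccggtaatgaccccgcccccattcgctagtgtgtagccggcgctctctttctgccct
Flt1: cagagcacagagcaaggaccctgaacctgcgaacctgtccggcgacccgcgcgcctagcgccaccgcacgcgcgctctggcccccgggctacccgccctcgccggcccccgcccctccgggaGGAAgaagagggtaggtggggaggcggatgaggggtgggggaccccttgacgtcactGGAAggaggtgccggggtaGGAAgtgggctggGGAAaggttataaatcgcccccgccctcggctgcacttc
The Apln window held 3 matches, and the Kdr and Flt1 windows held 4 each. The same 4 letters were found in 93.4% of all 32851 promoter windows of this length, so the matches set these genes apart from no others. The core of the hypoxia response element, ACGTG on either strand with overlapping matches counted, was in none of the 3 windows and in 16.6% of all windows.

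Levels are FPKM, fragments per kilobase of gene scaled to a total (in M) for the library, as the authors deposited them. That total was not the sum of counted fragments: it was 0.889 to 1.41 times that sum, the highest in Adr replicate 3 at 3 days (24.1 M against 17.2 M) and at most 1.10 in the others. Libraries held 13.2 to 30.2 M fragments counted on genes. Members took 14 to 468 fragments per library for Apln, 17 to 229 for Angpt2 and 1110 to 6957 for Kdr, so Apln and Angpt2 are counted least precisely. The spread between libraries comes on top of this and does not follow the fragment number. The lowest and highest numbers of genes above 0 were 13475 and 16925 in Naïve libraries and 15398 and 21377 in the other 8 groups. Cardiomyocyte markers summed to 13644 to 16248 FPKM in Naïve libraries and all 15 pan-endothelial markers were present. In Adr replicate 3 at 3 days mitochondrial genes took 9.36% of fragments, the lowest share of any library, cardiomyocyte markers summed to 4190 FPKM, and leukocyte markers summed to 2233 FPKM. Leukocyte markers summed to 362 to 2233 FPKM in Adr hearts at 3 days and to 266 to 463 FPKM in Naïve hearts.

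**Figure D1:**
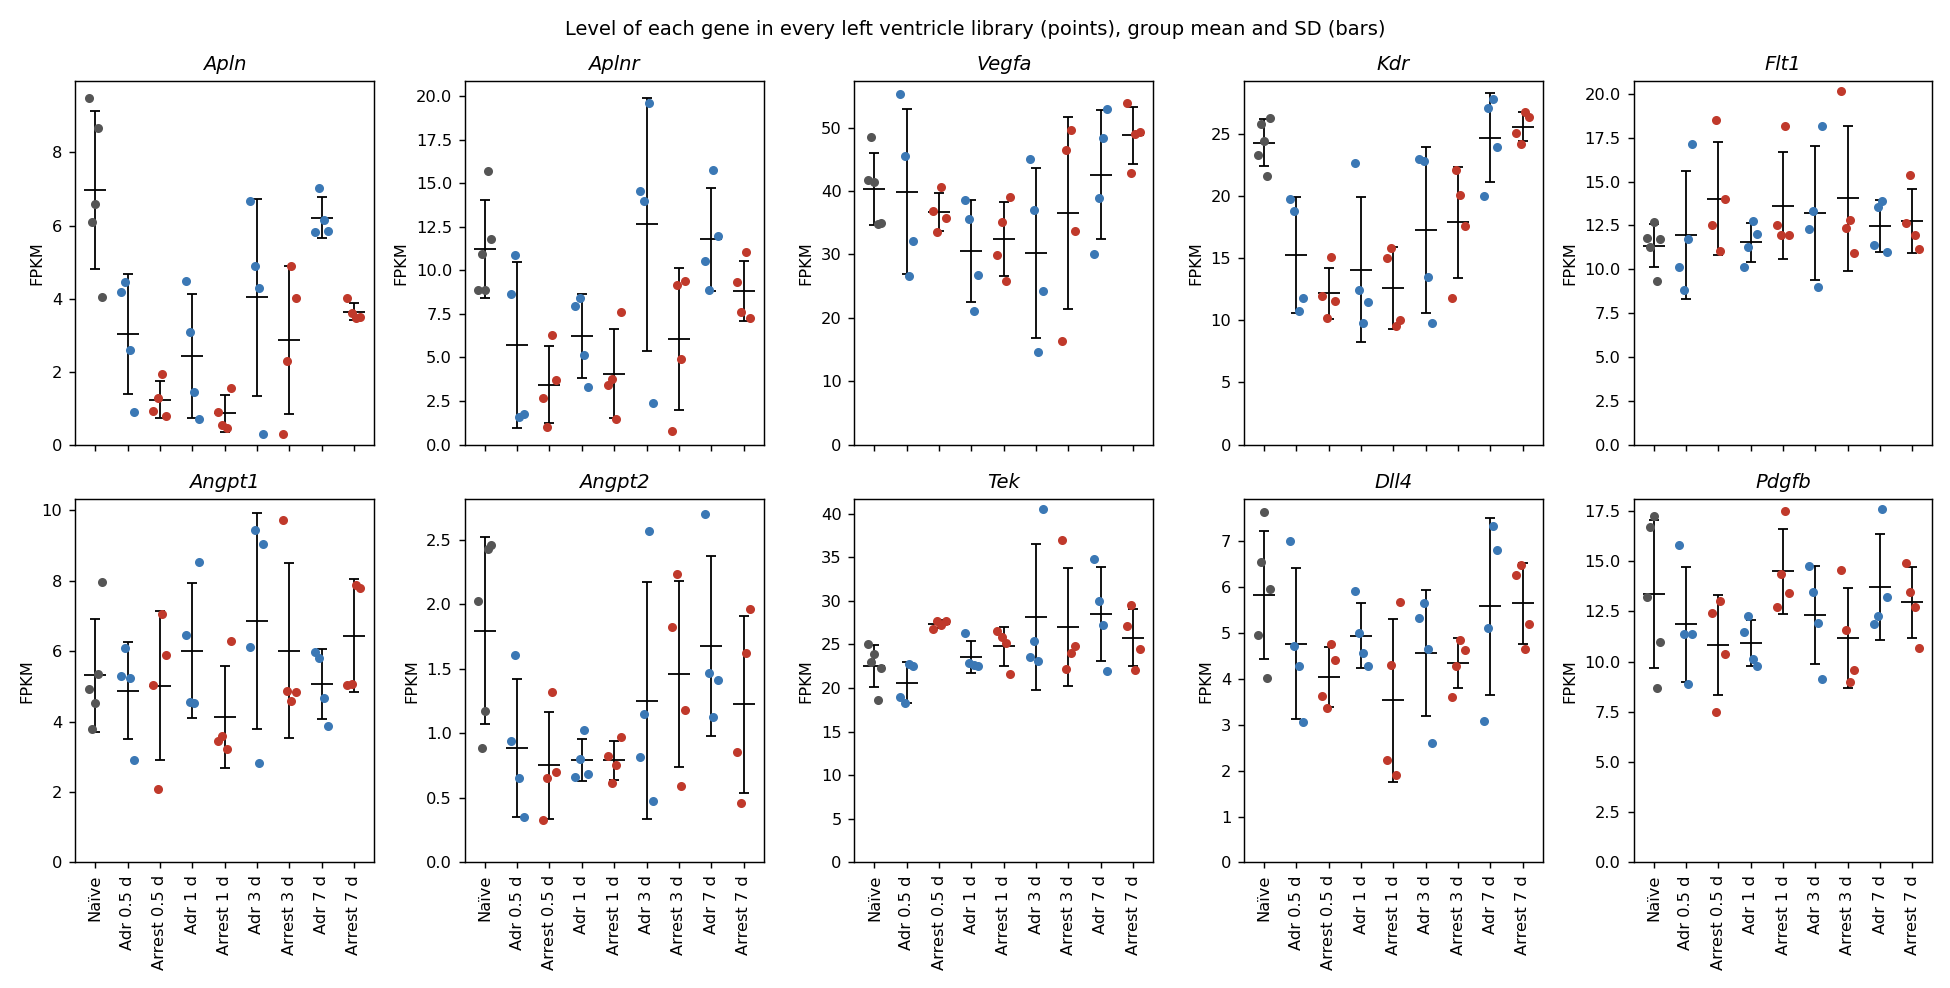
Level in FPKM (vertical axes) of each of the 10 genes in every library (points), with group means and SD (bars), for Naïve hearts and for Adr and Arrest hearts by day after the procedure (horizontal axes). Apln in the 4 Arrest libraries of 1 day lies between 0.442 and 1.55 FPKM, under the 4.04 to 9.5 FPKM of the Naïve libraries.

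FPKM are per length, so members can be ranked within Naïve hearts. Vegfa was the highest, at 40.3 ± 5.71 FPKM (SD, n = 5). Kdr at 24.3 ± 1.89 and Tek at 22.6 ± 2.42 followed with overlapping ranges, both apart from Vegfa and from the genes under them. Pdgfb at 13.4 ± 3.67, Flt1 at 11.4 ± 1.25, Aplnr at 11.2 ± 2.81, Apln at 6.98 ± 2.17, Dll4 at 5.82 ± 1.4 and Angpt1 at 5.31 ± 1.59 FPKM formed a run in which each gene overlapped the next. Angpt2 was the lowest, at 1.8 ± 0.725 FPKM, and its range did not reach that of Angpt1.

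Across the 10 members, each against Naïve, limma called 2 lower and 0 higher in Arrest at 0.5 days, where 3.21% of all 16530 genes tested were called in either direction, and 2 lower and 0 higher in Arrest at 1 day, where the share was 7.11%. Both times the called members were Apln and Kdr. These are the contrasts around which the set was chosen, and nothing is read from the counts. In the other contrasts with Naïve no member was called: 0 of 10 in Adr at 0.5 days (background 0.188%, 4 members at an unadjusted p under 0.05), 0 in Adr at 1 day (0.69%, 3 members), 0 in Adr at 3 days (0%, 2 members), 0 in Arrest at 3 days (0.139%, 2 members), 0 in Adr at 7 days (0%, 1 member) and 0 in Arrest at 7 days (0%, 0 members). The median log2 fold change of the 10 members was -0.20 in Adr at 0.5 days and -0.32 in Adr at 1 day, beside 0.04 for all genes in each. Of all genes tested, 6.33% had ranges apart from Naïve, in either direction, in Adr at 0.5 days and 5.25% in Adr at 1 day. In Arrest the shares were 8.2% at 0.5 days, 10.5% at 1 day and 1.69% at 7 days. Within an arm, against 7 days, they were 10.3% and 12.9% in Arrest and 8.21% and 6.58% in Adr at 0.5 and 1 day.

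**Figure D2:**
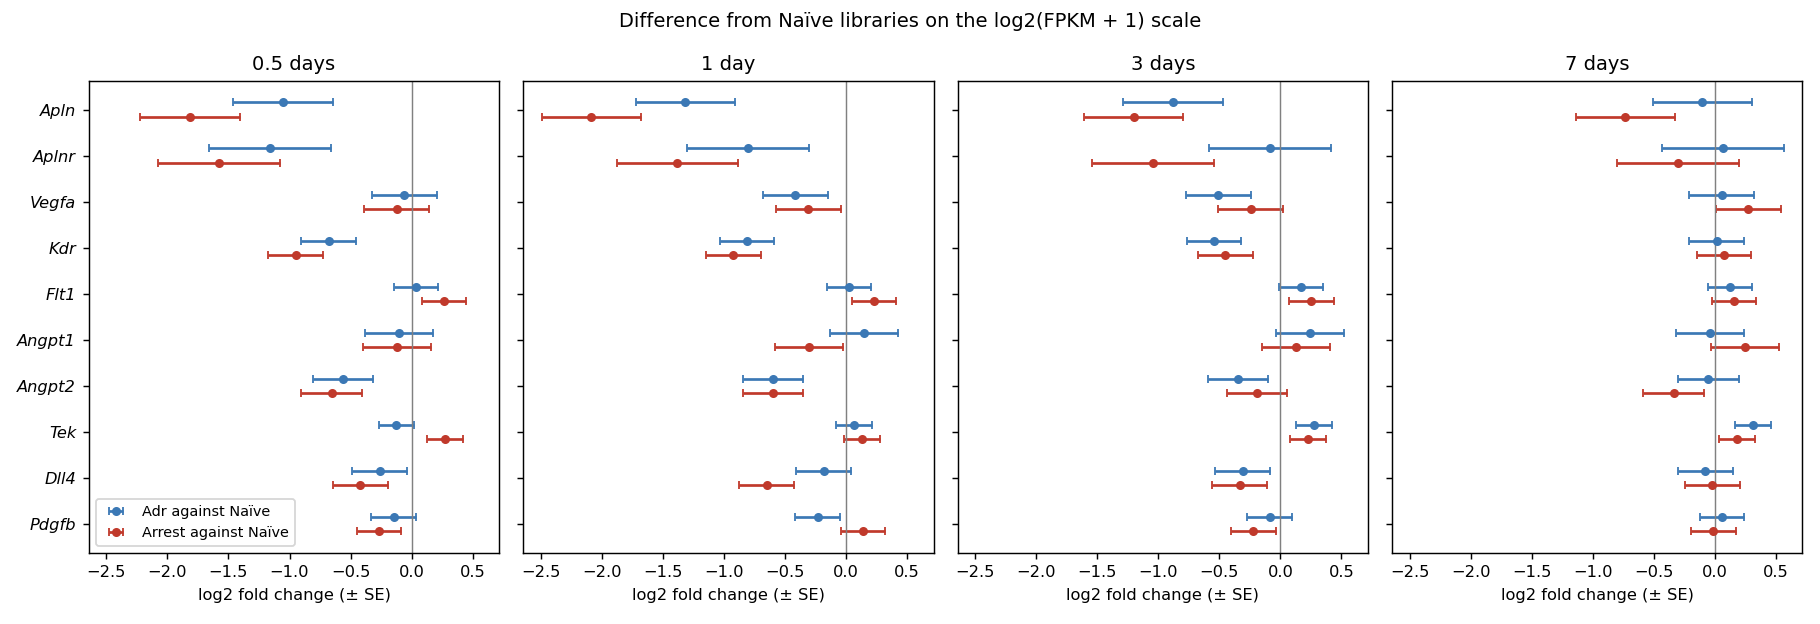
Log2 fold change against Naïve with its SE (horizontal axes) for the 10 genes (vertical axis) in Adr (blue) and Arrest (red) hearts of each day. Apln, Aplnr, Kdr and Angpt2 lie below 0 in both arms at 0.5 and 1 day, and at 7 days Kdr lies at 0.02 in Adr and 0.07 in Arrest.

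Apln, the ligand, was lowest in early Arrest hearts. The 5 Naïve libraries held 9.5, 6.1, 6.6, 8.66 and 4.04 FPKM of Apln. Arrest libraries held 0.929, 1.28, 1.92 and 0.779 FPKM at 0.5 days and 0.897, 0.534, 0.442 and 1.55 FPKM at 1 day. All 8 of these lie under every Naïve library, and the log2 fold changes were -1.82 ± 0.41 (SE) and -2.09 ± 0.41. Since Apln took 18 to 83 fragments per library in Arrest at 1 day, its level there is known only coarsely.

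Adr hearts, which had no arrest, held intermediate Apln. Their libraries held 4.18, 4.44, 2.59 and 0.882 FPKM of Apln at 0.5 days and 4.47, 3.08, 1.44 and 0.69 FPKM at 1 day. At each time 1 or 2 Adr libraries reached into the Naïve range and the lowest reached into the Arrest range. The log2 differences of Apln from Naïve were -1.05 ± 0.41 at 0.5 days (SE, adjusted p = 0.223) and -1.32 ± 0.41 at 1 day (adjusted p = 0.112), neither past the threshold of 0.05. Directly against Adr, Arrest differed by -0.76 ± 0.43 at 0.5 days (adjusted p = 1) and -0.77 ± 0.43 at 1 day (adjusted p = 0.788), so a difference between the arms was not shown.

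At 3 days Apln spread widely in both arms. Adr libraries held 6.66, 4.89, 4.28 and 0.291 FPKM of Apln, and Arrest libraries held 0.299, 2.3, 4.88 and 4.01 FPKM. The lowest library of each arm lay under every other library of the 9 groups, while the rest of the Adr libraries were within the Naïve range. At 7 days the Adr libraries held 5.81, 7.02, 6.16 and 5.84 FPKM and the Arrest libraries 4.01, 3.6, 3.47 and 3.5 FPKM of Apln. The 4 Arrest libraries lay just under the lowest Naïve library and under all 4 Adr libraries, but the log2 difference of -0.73 ± 0.41 from Naïve (adjusted p = 0.967) and of -0.63 ± 0.43 from Adr (adjusted p = 1) did not pass.

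Aplnr, the receptor, took the same direction with more spread. Naïve libraries held 8.85, 10.9, 8.87, 15.7 and 11.8 FPKM of Aplnr. Arrest libraries held 2.68, 1.01, 6.3 and 3.73 FPKM at 0.5 days and 3.41, 3.78, 1.46 and 7.58 FPKM at 1 day, all under the Naïve range. The log2 fold changes were -1.58 ± 0.50 and -1.38 ± 0.50. Adr libraries of 0.5 days split into a pair at 8.63 and 10.9 FPKM and a pair at 1.57 and 1.77 FPKM of Aplnr. In Adr hearts at 1 day Aplnr ran from 3.31 to 8.4 FPKM, under the Naïve range. The differences of Adr from Naïve were -1.16 ± 0.50 (adjusted p = 0.279) and -0.80 ± 0.50 (adjusted p = 0.465) on the log2 scale. At 7 days the receptor ran from 8.89 to 15.8 FPKM in Adr and from 7.25 to 11 FPKM in Arrest, overlapping Naïve hearts in both.

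Ligand and receptor moved together from library to library inside groups. Deviations of Apln and Aplnr from their own group means correlated with r = 0.75 (permutation p = 0.00063, Benjamini-Hochberg adjusted p over 45 pairs = 0.00473) and rho = 0.64 (permutation p = 0.00105, adjusted p = 0.00945) over 37 libraries. Labels were permuted within groups in 100000 resamples. Without the 2 libraries farthest from the median in Apln, r was 0.60, and without the 8 early Arrest libraries it was 0.79 over 29. How often other pairs of genes correlate as closely was not computed.

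Other genes of the apelin system were read beside the pair. Apela, the second Aplnr ligand, was under the filter on low values, with a highest value of 0.306 FPKM in any library. Gnai2, Arrb1 and Arrb2, which carry signals from receptors of this class, were tested, and none of them was called in Adr or Arrest at 0.5 or 1 day.

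Vegfa, the ligand of Kdr and Flt1, showed no called change. It ran from 34.8 to 48.6 FPKM in Naïve, from 33.6 to 40.7 in Arrest at 0.5 days, from 25.9 to 39.1 in Arrest at 1 day and from 42.9 to 53.8 in Arrest at 7 days. The early Arrest ranges overlap the Naïve range and lie under the 7-day Arrest range. The log2 difference of Arrest at 1 day from Arrest at 7 days was -0.58 ± 0.28 (adjusted p = 0.323). Vegfa was 14.6 FPKM in Adr replicate 3 at 3 days, the library with the lowest cardiomyocyte marker sum and with the largest total relative to its counted fragments.

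Kdr, the main signaling receptor for Vegfa, was low in early Arrest hearts and at the Naïve level by 7 days. Naïve libraries held 23.3, 25.8, 24.4, 21.6 and 26.3 FPKM of Kdr. Arrest libraries held 11.9, 10.2, 15.1 and 11.5 FPKM at 0.5 days and 15, 15.8, 9.51 and 10.1 FPKM at 1 day. No early Arrest library reached the Naïve range, and the log2 fold changes were -0.95 ± 0.22 and -0.92 ± 0.22. At 7 days Arrest libraries held 25.1, 24.2, 26.7 and 26.3 FPKM, inside or just above the Naïve range.

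The group means compared within the Arrest arm leave the Naïve libraries out but share the early Arrest libraries with the choice of the set. Within this arm Kdr was the 1 member of 10 called at 0.5 days against 7 days (background 0.381%, 3 members at an unadjusted p under 0.05) and the 1 member called at 1 day against 7 days (1.89%, 5 members). Kdr was lower than at 7 days by a log2 fold change of -1.02 ± 0.24 (adjusted p = 0.0407) and of -0.996 ± 0.24 (adjusted p = 0.0246), in 4 of 4 libraries at each time. These calls are close to the threshold: leaving out any 1 of the 4 Arrest libraries of 7 days, or replicate 1, 2 or 4 of 0.5 days, ended the first, with Kdr between -0.95 and -1.05 and adjusted p from 0.0944 to 0.181, and the second was lost without any 1 of the 7-day libraries or without replicate 1 or 3 of 1 day (adjusted p from 0.0556 to 0.124). With the mean of the pan-endothelial markers as a covariate, Kdr at 0.5 days against 7 days was -0.89 (adjusted p = 0.132). Apln against 7 days was -1.08 ± 0.43 at 0.5 days (adjusted p = 0.295) and -1.35 ± 0.43 at 1 day (adjusted p = 0.0927). At 3 days 0 members were called against 7 days (0%, 1 member at an unadjusted p under 0.05).

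The group means compared within the Adr arm use no library of the contrasts that chose the set. Their SE and p do, as in every contrast, because all 37 libraries share 1 estimate of the spread. Against Adr at 7 days, 0 of 10 members were called at 0.5 days (background 0.00605%, 4 members at an unadjusted p under 0.05), 0 at 1 day (0.0423%, 3 members) and 0 at 3 days (0%, 1 member). Kdr was 19.7, 18.8, 10.7 and 11.7 FPKM in Adr at 0.5 days and 22.6, 12.4, 9.77 and 11.5 FPKM at 1 day, against 20, 27.1, 27.8 and 23.9 FPKM at 7 days. All 4 libraries of 0.5 days and 3 of 4 at 1 day lie under the 7-day range. The log2 differences of Kdr were -0.69 ± 0.24 (adjusted p = 0.376) and -0.83 ± 0.24 (adjusted p = 0.191). Against Naïve, Kdr in Adr at 1 day was -0.81 ± 0.22 (adjusted p = 0.0752), and it passed the threshold without Adr replicate 1 of that day, which held 22.6 FPKM (-1.05, adjusted p = 0.0301), or without Adr replicate 3 of 3 days (-0.81, adjusted p = 0.0463).

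Arrest was also set against Adr at the same time, which keeps anesthesia, ventilation and adrenaline alike. At 0.5 and 1 day this shares the early Arrest libraries with the choice of the set. No member was called at 0.5 days (0 of 10, background 0%, 1 member at an unadjusted p under 0.05), 1 day (0 of 10, 0%, 0 members), 3 days (0 of 10, 0%, 0 members) or 7 days (0 of 10, 0.00605%, 0 members). The member at 0.5 days was Tek, at 0.40 ± 0.15 on the log2 scale (adjusted p = 1). For Kdr the 95% intervals of Arrest minus Adr ran from -0.75 to 0.21 at 0.5 days and from -0.59 to 0.37 at 1 day. The change from 0.5 to 7 days and from 1 to 7 days was compared between the arms, again with 0 members called in each (background 0% and 0%, with 1 and 0 members at an unadjusted p under 0.05).

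Flt1, the receptor that binds Vegfa most tightly, did not share the low early values of Kdr. It ran from 9.32 to 12.7 FPKM in Naïve, 11 to 18.5 in Arrest at 0.5 days and 11.9 to 18.2 in Arrest at 1 day. The ranges overlap, with log2 fold changes of 0.26 ± 0.18 and 0.23 ± 0.18. Within groups Flt1 ran against Aplnr and Kdr, and with Tek. Its deviations correlated with those of Aplnr with r = -0.83 (permutation p = 2e-05, adjusted p over 45 pairs = 0.0009) and rho = -0.75 (permutation p = 3e-05, adjusted p = 0.000675), and r was -0.76 without the 2 libraries farthest from the median in Aplnr. With Kdr, r was -0.51 (permutation p = 0.0134, adjusted p = 0.0431) and rho was -0.45 (permutation p = 0.022, adjusted p = 0.0619), and r was -0.43 without the 2 libraries farthest in Kdr. With Tek, r was 0.63 (permutation p = 0.00102, adjusted p = 0.00574) and rho was 0.56 (permutation p = 0.00179, adjusted p = 0.0101), and r was 0.55 without the 2 libraries farthest from the median in Flt1. Vegfa and Kdr deviated together, with r = 0.74 (permutation p = 0.00024, adjusted p = 0.00432) and rho = 0.76 (permutation p = 0.00015, adjusted p = 0.00225), and r was 0.73 without the 2 libraries farthest in Vegfa. Of the 45 pairs of members, 14 passed after adjustment, 10 of them positive and 4 negative. These pairs were picked after their values were seen, and all libraries share one table and one scaling. The share of pairs of other genes that would pass was not computed, so the count is not read as particular to the members.

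**Figure D3:**
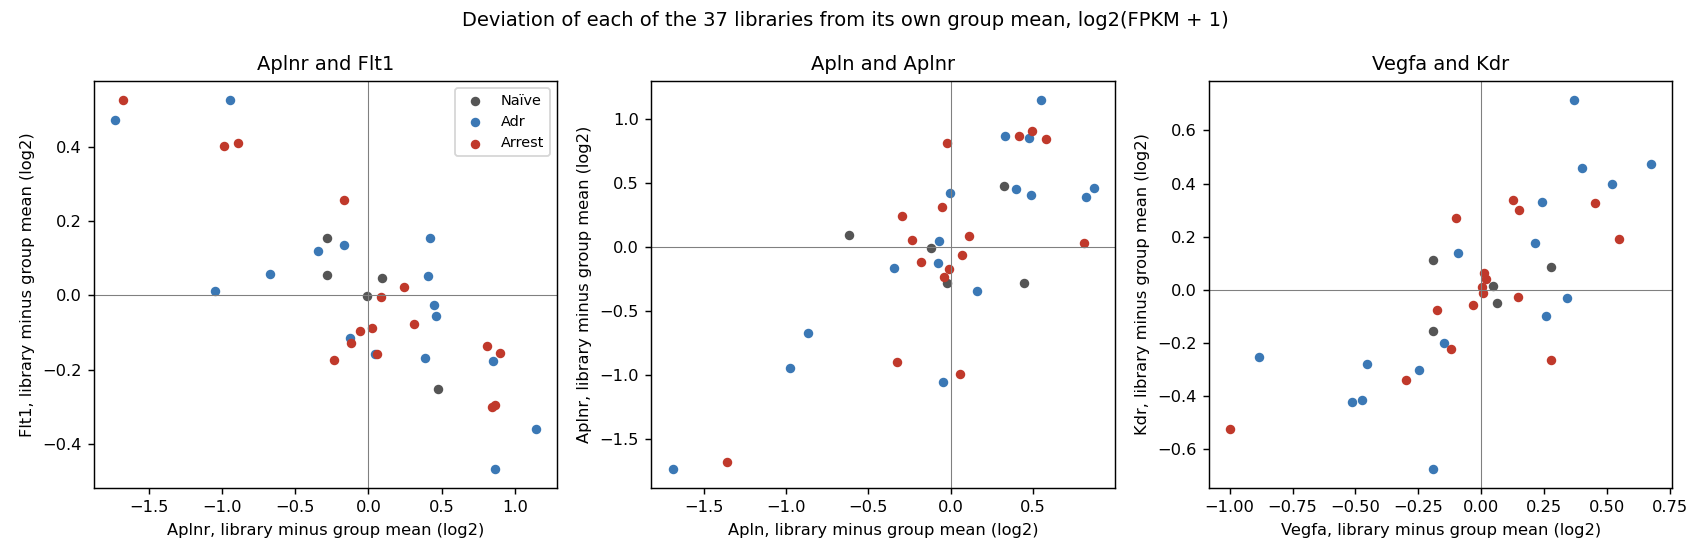
Each of the 37 libraries as its deviation from its own group mean on the log2(FPKM + 1) scale, for Aplnr (horizontal) and Flt1 (vertical), Apln and Aplnr, and Vegfa and Kdr, with Naïve in gray, Adr in blue and Arrest in red. Libraries with low Aplnr have high Flt1 (r = -0.83), while Apln and Aplnr (r = 0.75) and Vegfa and Kdr (r = 0.74) rise together.

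Around these receptors, 10 VEGF ligands and receptors were listed and all were tested. In Adr 1 gene was lower and 0 higher at 0.5 days (0.188% of all genes called) and likewise at 1 day (0.69%). In Arrest at 0.5 days 2 were lower and 1 higher (3.21% of all genes called), and at 1 day 3 were lower and 1 higher (7.11%), Kdr included. Their median log2 fold change was -0.13 and -0.07 in Arrest at these times, beside 0.03 for all genes in each.

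Pgf, placental growth factor, which binds Flt1 but not Kdr, was the gene that rose. Naïve libraries held 1.01, 1.15, 2.65, 0.76 and 0.871 FPKM of Pgf. Arrest libraries held 6.61, 11.8, 3.57 and 3.44 FPKM at 0.5 days and 5.13, 5.7, 9.36 and 4.41 FPKM at 1 day, all above Naïve. Pgf rose by 1.59 ± 0.32 (adjusted p = 0.00626) and 1.65 ± 0.32 (adjusted p = 0.00249) on the log2 scale, and the first was lost without Arrest replicate 2 (1.28, adjusted p = 0.0556). The second was lost with the running number of the sample descriptions as a covariate (1.93, adjusted p = 0.0621). In Adr it ran from 2.33 to 5.58 FPKM at 0.5 days and from 2.11 to 4.76 at 1 day, with log2 differences of 1.04 (adjusted p = 0.137) and 0.91 (adjusted p = 0.169). At 7 days Pgf was 1.08 to 2.29 FPKM in Arrest, and Arrest at 1 day was higher than that by 1.37 ± 0.34 (adjusted p = 0.03).

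Nrp1, a co-receptor that presents VEGF to Kdr, was the gene that fell in both arms. Naïve libraries held 15.9, 15.2, 15.4, 16.4 and 17.8 FPKM of Nrp1. Adr libraries held 9.91, 9.54, 8.75 and 8.55 FPKM at 0.5 days and 14.2, 8.94, 10.2 and 8.08 FPKM at 1 day. Arrest libraries held 8.31, 11.1, 13.7 and 12.2 FPKM at 0.5 days and 8.96, 11.8, 7.95 and 8.23 FPKM at 1 day. Every one of the 16 early libraries lies under the Naïve range. By group, 5.25% to 10.5% of all genes tested were apart from Naïve in either direction. Nrp1 fell by 0.75 and 0.62 on the log2 scale in Adr (adjusted p = 0.0154 and 0.0256) and by 0.49 and 0.76 in Arrest (adjusted p = 0.0356 and 0.000958). The calls of both Adr times and of Arrest at 0.5 days were each lost without Naïve replicate 5 (adjusted p = 0.0543, 0.0544 and 0.0795). They were also lost without Adr replicate 3 or 4 at 0.5 days (0.0589 and 0.0645), without Adr replicate 2, 3 or 4 at 1 day (0.0657 to 0.0922), and without Naïve replicate 1 or 4 or Arrest replicate 1 or 2 at 0.5 days (0.059 to 0.166). Processing mattered as well for Adr at 1 day and Arrest at 0.5 days. Their calls were lost when scaled by counted fragments (adjusted p = 0.0819 and 0.0944) and with the length trend removed (0.0723 and 0.0789). With only the compared groups fitted they were lost too (0.137 and 0.0911). That of Arrest at 0.5 days was also lost without the filter (0.0518) and with the marker mean as a covariate (0.0571). The call in Arrest at 1 day passed under every alternative run. Its relative Nrp2, a co-receptor for lymphatic VEGF signals, fell in Arrest at 1 day (log2 fold change -0.70 ± 0.17, adjusted p = 0.00963). Libraries of 2.42 to 3.55 FPKM lay there under the Naïve 4.81 to 6.63 FPKM. The call of Nrp2 was lost with the running number of the sample descriptions as a covariate (-0.99, adjusted p = 0.0591).

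**Figure D4:**
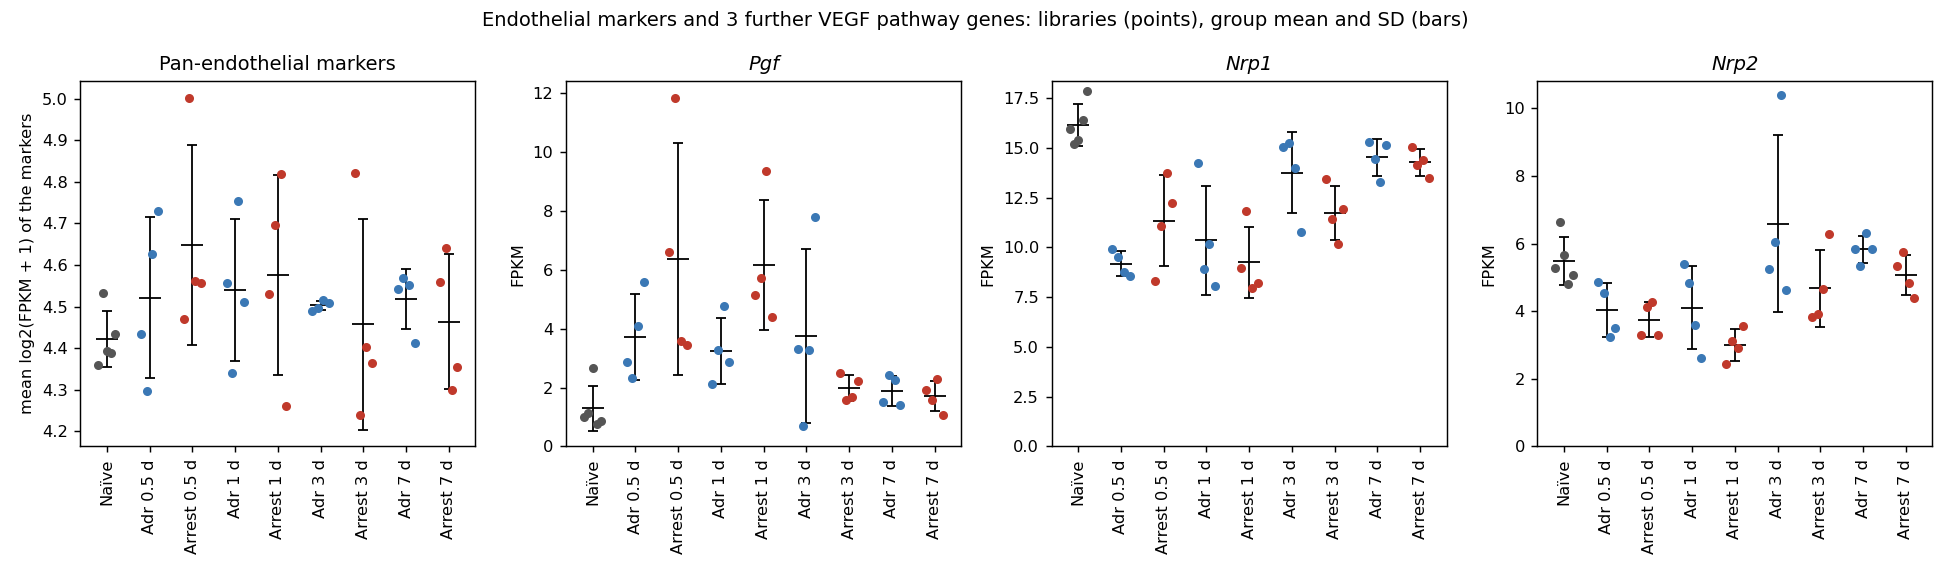
Mean log2(FPKM + 1) of the 15 pan-endothelial markers and FPKM of Pgf, Nrp1 and Nrp2 (vertical axes) in every library (points), with group means and SD (bars), across the 9 groups (horizontal axes). Pgf lies above every Naïve library in early Arrest hearts, and Nrp1 lies under every Naïve library in Adr and Arrest hearts of 0.5 and 1 day, while the marker means overlap between groups.

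The angiopoietins and their receptor showed no called change. Angpt2, the remodeling ligand, held 2.03, 0.887, 1.18, 2.43 and 2.46 FPKM in Naïve libraries. Its means were 0.889 ± 0.536 and 0.794 ± 0.166 FPKM (SD, n = 4) in Adr at 0.5 and 1 day and 0.753 ± 0.416 and 0.793 ± 0.15 FPKM in Arrest. Each of these 4 groups overlaps the Naïve range. The log2 differences ran from -0.66 in Arrest at 0.5 days to -0.56 in Adr at 0.5 days, and those of Adr had adjusted p = 0.295 and 0.244. Angpt1, the quiescence ligand, overlapped Naïve hearts in all 8 groups.

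The log2 ratio of Angpt2 to Angpt1 puts the pair on one scale. It was -1.63 ± 0.41 (SD, n = 5) in Naïve hearts, -2.61 ± 0.52 and -2.89 ± 0.69 (n = 4) in Adr at 0.5 and 1 day, -2.77 ± 0.96 and -2.35 ± 0.32 in Arrest, and -1.65 ± 0.43 in Adr and -2.57 ± 0.64 in Arrest at 7 days. Naïve libraries ran from -2.09 to -1.14, and every group of 0.5 or 1 day overlapped them except Adr at 1 day (-3.64 to -2.15). These ratios are values with no test, and they depend on how low values are treated. With a pseudocount of 1 they were -1.18 in Naïve, -1.65 and -1.93 in Adr and -1.72 and -1.49 in Arrest at 0.5 and 1 day, and -1.20 in Adr and -1.77 in Arrest at 7 days, with smaller gaps from Naïve in the early groups.

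Tek, the angiopoietin receptor, was the most even member in Arrest at 0.5 days. The 4 libraries held 26.8, 27.7, 27.2 and 27.7 FPKM, above all 5 Naïve libraries at 25, 23, 23.9, 18.6 and 22.3 FPKM, with a log2 fold change of 0.27 ± 0.15. At 3 days 1 library of each arm stood apart in Tek, at 40.6 FPKM in Adr replicate 4 and 37 FPKM in Arrest replicate 1, the same 2 libraries that held the lowest Apln. Their Flt1 was 18.2 and 20.1 FPKM and their Aplnr was 2.39 and 0.801 FPKM. Of the 7 angiopoietin and Tie genes tested, 0 were called in Adr or Arrest at 0.5 or 1 day.

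Dll4, the Notch ligand, held 4.96, 6.55, 7.63, 4.01 and 5.96 FPKM in Naïve libraries and 2.24, 4.3, 1.91 and 5.68 FPKM in Arrest at 1 day. The groups overlap, with 2 Arrest libraries under the Naïve range and 2 inside it, and a log2 fold change of -0.65 ± 0.23. Arrest minus Adr at 1 day was -0.47 ± 0.24 (adjusted p = 0.759). None of the 11 Notch genes tested was called against Naïve in either arm at 0.5 or 1 day. Pdgfb, the pericyte-recruiting ligand, had group means from 10.8 to 14.5 FPKM in all 9 groups, and none of the 6 PDGF ligands and receptors was called at those times.

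Among 18 genes of the endothelial tip cell, the leading cell of a vascular sprout, 0 were called in Adr at 0.5 or 1 day. In Arrest the calls besides Apln were Plaur, a protease receptor also made by leukocytes, which rose at 0.5 days (1.62 ± 0.38, adjusted p = 0.0168), and Lama4, a laminin of the endothelial basement membrane, which fell at 1 day (-0.63 ± 0.16, adjusted p = 0.0127). Plaur was 15.8 FPKM in Arrest replicate 2 and 2.37 to 3.55 FPKM in the rest of its group, and without that library its call was lost (1.08, adjusted p = 0.121). The call of Lama4 was lost without Arrest replicate 3 (-0.51, adjusted p = 0.0842). Of 18 hypoxia-inducible genes, Vegfa among them, 0 were called in Adr at these times. Hk2, a hexokinase, fell in Arrest at 0.5 days (-0.92 ± 0.25, adjusted p = 0.037) and 1 day (-1.08 ± 0.25, adjusted p = 0.00728), and at 1 day Pdk1 fell (-0.55, adjusted p = 0.0476) and Bnip3, a mitophagy receptor, rose (1.53, adjusted p = 0.0244). The calls thus ran in both directions. Hk2 at 1 day was lost with the running number as a covariate (-0.72, adjusted p = 0.403), and each of the rest was lost without 1 library: Hk2 at 0.5 days without any 1 of 8 libraries (adjusted p from 0.0556 to 0.0861), Pdk1 without any 1 of 9 (0.0558 to 0.137) and Bnip3 without Arrest replicate 1, 2 or 3 (0.0664 to 0.103).

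In bulk tissue, fewer endothelial cells and less RNA per cell cannot be told apart. The level of other endothelial genes is therefore given beside the members. The 15 pan-endothelial markers summed to 367 to 416 FPKM in Naïve libraries, 413 to 600 in Arrest at 0.5 days and 362 to 524 in Arrest at 1 day. Their mean log2(FPKM + 1) was higher than in Naïve hearts by 0.23 in Arrest at 0.5 days (exact two-sided permutation p = 0.0317, adjusted over 8 groups p = 0.212) and by 0.16 at 1 day (exact p = 0.238, adjusted p = 0.381), and by 0.10 and 0.12 in Adr (exact p = 0.333 and 0.222, adjusted p = 0.444 and 0.381). The smallest p that this test can give with 4 and 5 libraries is 0.0159. A single group at that value would not pass 0.05 after adjustment over 8 groups. Single libraries moved these differences by over 1.5 times: Arrest at 0.5 days was 0.108 without replicate 2, and Arrest at 1 day was 0.0743 without replicate 3 and 0.260 without replicate 4. Adr at 0.5 days was 0.175, 0.0652 and 0.0306 without replicate 2, 3 and 4 in turn, and Adr at 1 day was 0.187 and 0.0484 without replicate 2 and 3. Single markers moved in both directions in Arrest: Emcn and Esam rose at 0.5 days, and at 1 day Esam, Egfl7 and Sox17 rose while Cdh5, the endothelial cadherin, fell by 0.42 on the log2 scale (adjusted p = 0.0181). In Adr 0 of 15 were called at either time.

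The members were also measured relative to that marker mean. Apln minus the marker mean was lower than in Naïve hearts by a log2 difference of -2.04 in Arrest at 0.5 days and -2.24 at 1 day, Aplnr by -1.81 and -1.54, and Kdr by -1.18 and -1.08. None of these 6 overlapped the Naïve values. They belong to the contrasts that chose the set, and the share of all genes was not computed for relative values. In Adr at 0.5 and 1 day the relative differences were -1.15 and -1.43 for Apln, -1.26 and -0.92 for Aplnr, and -0.78 and -0.93 for Kdr. Kdr overlapped Naïve at neither time, while Apln and Aplnr overlapped at 0.5 days only.

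Markers of other cells were read beside them. Prox1, a lymphatic endothelial regulator, fell by 0.84 and 0.74 on the log2 scale in Adr and by 0.93 and 0.77 in Arrest at 0.5 and 1 day (adjusted p = 0.0462, 0.0497, 0.0053 and 0.00981), as 1 of 6 lymphatic markers, and Pdpn of that list rose in Arrest at 0.5 days. Of 10 mural cell markers, Abcc9 fell in Arrest at both times (-1.01 and -1.16) and Myh11 fell in Adr and Arrest at 1 day (-1.09 and -0.90). No fibroblast marker was called at these times, nor any of the 9 leukocyte markers tested out of 11 listed. The neutrophil marker Ly6g was not detected in any library, so it could not be called. Of the cardiomyocyte markers Nppb rose in Arrest at 1 day. None of the 4 lung, liver and blood markers tested, out of 6 listed, was called. The part of cell composition in the members' values was not tested.

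The genes whose levels most resembled each member were ranked by Pearson's r of log2(FPKM + 1) over all 37 libraries, among 11505 genes with a mean of at least 1 FPKM. Apln went most closely with Bcl6b (r = 0.87), Ccnd2, Fblim1, Trp53i11 and Dcakd (r = 0.86 each), and ran most against Tmem38b, Cebpd and Tcf23 (r = -0.87 each). Kdr went with Itpkb (r = 0.93) and Bcl6b (r = 0.91), Aplnr with Plxnd1 (r = 0.90) and Angptl2 (r = 0.85), and Vegfa with Fkbp4 (r = 0.89) and Uqcc1 (r = 0.86). The highest values were lower for Flt1 (Dab2ip, r = 0.79), Tek (Gpr182, r = 0.79), Angpt2 (Mvb12b, r = 0.73), Dll4 (Bicd2, r = 0.73), Angpt1 (Pdp1, r = 0.66) and Pdgfb (Adra1d, r = 0.61). These libraries share group differences and scaling, and the values are descriptions.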

How the data were processed

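Left ventricular RNA from 37 libraries in 9 groups, taken from the sample labels, was analyzed. Libraries were sequenced by Novogene, checked with FastQC and aligned with HISAT2 for the authors, who tested with DESeq2. The authors deposited 1 table of FPKM for 56748 genes. The genome build, annotation, counting tool and strand are not given in the sources used here. The authors left out 1 Adr library of 3 days for poor quality; the labels do not say which, and all 4 were used, each also left out in turn. No per-sample column was left unused (0).

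FPKM times gene length was a whole multiple of 1 fragment within 0.01 fragments in 100% of values, which gave 13.2 to 30.2 M fragments per library. No count model was used, because the unit is FPKM. The deposited FPKM already carried a scaling by median ratios: computed again, the factor was 1.01 in every library and changed nothing between libraries. Values were converted to log2(FPKM + 1), so fold changes of low genes are understated. Printed levels are the deposited FPKM. Genes reaching 0.5 FPKM in 4 or more libraries (16530) entered a limma model of 9 group means without covariates (limma 3.58.1, eBayes, trend; R 4.3.3), with Benjamini-Hochberg adjustment within each comparison and a threshold of 0.05. The script was tested on simulated data. For marker means the permutation test was exact and two-sided, and member pairs were tested by permutation within groups (100000 resamples; smallest p 1e-05), in Python 3.11.15 with scipy 1.17.1. Figures used matplotlib 3.10.9.

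The members and gene lists were chosen with earlier results of these data known. A result of the apelin list is not reported here. Named genes were all 10 members, at most 4 called genes per list and comparison by size of change, and the most and least similar genes. Alternatives were the scaling, the pseudocount, the filter, removal of the length trend, quality weights, covariates, the replicate number as a block, only the compared groups, and leaving out each library.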

Additional observations from a re-analysis of the deposited data

Results flagged for a closer look

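Of 90 sets of values (10 members in 9 groups), 5 held a library far from the others of its group by Dixon's criterion on the log2(FPKM + 1) scale, where chance flags about 1 in 20, or 4.5. Flt1 was 18.2 FPKM in Arrest replicate 3 of 1 day, against 11.9 to 12.5 in the others. Angpt1 was 6.3 FPKM in Arrest replicate 4 of 1 day, against 3.21 to 3.58, and 9.73 FPKM in Arrest replicate 1 of 3 days, against 4.59 to 4.87. Tek was 26.3 FPKM in Adr replicate 1 of 1 day, against 22.5 to 22.9, and 40.6 FPKM in Adr replicate 4 of 3 days, against 23.1 to 25.4. No difference between the arms in the change to 7 days passed its test.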

How the results depend on the processing

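Of 492 recounts of called members under alternatives, 461 stayed within 1.5 times the count reported and 31 did not. With sample quality weights 1 member was called in Adr at 1 day against Naïve, 1 in Adr at 0.5 days and 1 in Adr at 1 day against 7 days, where 0 were reported, and 4 in Arrest at 1 day against 7 days, where 1 was reported. With only the compared groups fitted, 2 were called in Arrest at 0.5 days and 2 at 1 day against 7 days. Arrest at 0.5 days against Naïve gave 0 with the pan-endothelial marker mean as covariate, and Arrest at 1 day against Naïve gave 0 with the running number of the sample descriptions as covariate, which enters all comparisons and is not said to be a batch. With it the calls of Pgf, Nrp2, Lama4, Bnip3, Pdk1 and Hk2 in Arrest at 1 day, of Plaur and Hk2 in Arrest at 0.5 days and of Nrp1 in Adr at 1 day were lost too. Arrest at 0.5 days against 7 days gave 0 without the filter, with the length trend removed and with the marker covariate. The cause of these moves was not tested. Recounts of Arrest at 0.5 and 1 day against Naïve describe the calls only, since those contrasts chose the set.

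Leaving out 1 library at a time gave 0 to 1 called members in Adr at 1 day against Naïve, 1 to 3 in Arrest at 0.5 days against Naïve (1 without Arrest replicate 2, 3 without Adr replicate 4 of 3 days), 1 to 4 in Arrest at 1 day against Naïve (1 without replicate 3, 4 without replicate 4), 0 to 1 in Arrest at 0.5 days against 7 days, and 0 to 2 in Arrest at 1 day against 7 days (2 without replicate 4 of 1 day or without Adr replicate 4 of 3 days). Of 1229 refitted fold changes none changed sign, 108 were lost at the threshold and 14 gained it. The difference in the marker mean of Arrest from Naïve turned negative at 3 days under quantile normalization (-0.0262), and without 1 library ran from -0.0861 to 0.108 at 3 days and from -0.0169 to 0.0969 at 7 days; for 0.5 and 1 day it ran from 0.108 to 0.285 and 0.0743 to 0.260 in Arrest and from 0.0306 to 0.175 and 0.0484 to 0.187 in Adr. The Angpt2 to Angpt1 ratios moved by more than the spread between libraries with a pseudocount of 1, except at 3 days. With a pseudocount of 0.1, Apln relative to the markers was -2.67 in Arrest at 0.5 days and -3.14 at 1 day.

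With the replicate number as a block, the counts of called members were 2 in Arrest at 0.5 days and 2 at 1 day against Naïve, 1 and 1 against 7 days and 0 elsewhere, as without it, while Nrp1 lost its calls in Adr at 0.5 and 1 day and in Arrest at 0.5 days (adjusted p = 0.0698, 0.0645 and 0.0882). Over all genes tested, libraries of the same number did not deviate together on average (mean r = -0.01, single pairs from -0.29 to 0.27). A mean of this kind cannot exclude a pairing within some groups or genes, which was not tested.

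Precision is limited by depth for Apln and Angpt2, by 4 or 5 libraries per group, and by FPKM values that carry no count model. Intervals cover the spread between libraries only. The Naïve group serves 8 comparisons, so these are not independent. Whether the library excluded by the authors is among the 4 Adr libraries of 3 days is not known here.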
